A study of Homo sapiens with 6 samples.

Results

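Alcohol dehydrogenases are zinc enzymes that oxidize alcohols to aldehydes with NAD+, and in humans their genes lie side by side on the long arm of chromosome 4. The class I genes ADH1A, ADH1B and ADH1C encode the liver enzymes that clear most ingested ethanol, and the class II enzyme encoded by ADH4 is also a liver enzyme and acts on ethanol at higher concentrations and on retinol. ADH5 encodes the class III enzyme, which is made in nearly all tissues and acts in the removal of formaldehyde bound to glutathione. ADH6 encodes a little-studied class V enzyme found in liver, and ADH7 the class IV enzyme of the stomach and upper digestive tract. The family was defined by name, as ADH1A, ADH1B, ADH1C, ADH4, ADH5, ADH6 and ADH7, and all 7 genes were found among the 58037 gene rows of the deposited table.

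The samples were cultures of HepaRG, a human hepatic cell line of tumour origin that differentiates into hepatocyte-like and biliary-like cells. They were at passages 15 to 18 and had 14 days of growth, then 14 days of differentiation and 5 days in basal medium with insulin and hydrocortisone. In the fatty acid group (3 samples) the medium then carried 0.5 mM palmitate and oleate (1 part to 2 parts) bound to 0.02% bovine serum albumin for 72 h, and in the control group (3 samples) it carried 0.02% albumin alone. All samples come from 1 cell line, and whether the replicates were separate cultures is not in the labels, so the p-values below speak only of the spread among these 6 samples, and that spread may be technical. The series title and design name the regulation of drug-metabolizing enzymes under lipid loading as the question. Levels are the authors' deposited FPKM (fragments per kilobase of gene length, scaled to library depth), given as mean ± SD with n = 3 per group. Fold changes are log2 differences of FPKM + 0.5, fatty acid minus control, ± SE, which understate the change of low genes.

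Depth ran from 6331372 to 11821423 reads in the control group and from 8364570 to 15941353 reads in the fatty acid group. Correlations of log2 values ran from 0.969 to 0.978 among control libraries and from 0.985 to 0.986 among fatty acid libraries. Between a control and a fatty acid library they ran from 0.962 to 0.980, which overlaps the range among controls. The hepatocyte marker ALB, which encodes albumin, was at 12025 ± 318 FPKM in controls and 7127 ± 306 FPKM with fatty acid. Markers of other cells were mixed: KRT19, a biliary keratin, was at 343 ± 36.6 and 316 ± 9.49 FPKM and LUM, DCN and ACTA2 of mesenchymal cells and KDR of endothelial cells were also expressed, whereas EPCAM, THY1, CDH5 and CD3E were at 0 in all 6 libraries. The minimum for testing was a mean of 0.5 FPKM. Of the 14661 genes that met it, 686 were called lower and 1205 higher with fatty acid (limma, Benjamini-Hochberg adjusted p under 0.05). Mitochondrial genes took 12.2%, 13.7% and 15.0% of reads in controls 1 to 3 and 9.86%, 9.15% and 11.9% with fatty acid, so the groups did not overlap. Higher and lower calls were divided otherwise under other scalings, with 779 higher and 818 lower after median of ratios scaling, 758 and 772 after quantile normalization, 710 and 835 after scaling to nuclear reads, and 2615 and 408 after rescaling to TPM.

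The promoters of the class I genes and of ADH5 are shown first, because all 3 class I genes fell and ADH5 did not pass the test. Each line holds 250 bases before and 50 bases after the RefSeq start on the minus strand (GRCh38.p14), and all 7 genes had an entry in the promoter table. In the 3 class I promoters capitals mark GGGTGTGGC and the E-box CACGTG. In the ADH5 promoter they mark the GC box GGGCGG (here on the other strand) and the C/EBP-like motif TTNNGCAA. The windows are chr4:99290936-99291235 for ADH1A, chr4:99321352-99321651 for ADH1B, chr4:99352697-99352996 for ADH1C and chr4:99088739-99089038 for ADH5.
ADH1A promoter: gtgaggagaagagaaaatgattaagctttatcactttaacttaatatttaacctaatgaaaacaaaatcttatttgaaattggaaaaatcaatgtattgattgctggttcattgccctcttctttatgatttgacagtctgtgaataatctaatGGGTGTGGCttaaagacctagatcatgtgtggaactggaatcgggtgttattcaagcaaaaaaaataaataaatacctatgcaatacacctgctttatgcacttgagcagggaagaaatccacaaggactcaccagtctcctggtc
ADH1B promoter: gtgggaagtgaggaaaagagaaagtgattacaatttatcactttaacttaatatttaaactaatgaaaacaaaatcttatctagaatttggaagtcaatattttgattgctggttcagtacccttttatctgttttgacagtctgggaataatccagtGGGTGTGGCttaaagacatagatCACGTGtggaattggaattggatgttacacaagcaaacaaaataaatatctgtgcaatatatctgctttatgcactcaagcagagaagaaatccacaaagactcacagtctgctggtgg
ADH1C promoter: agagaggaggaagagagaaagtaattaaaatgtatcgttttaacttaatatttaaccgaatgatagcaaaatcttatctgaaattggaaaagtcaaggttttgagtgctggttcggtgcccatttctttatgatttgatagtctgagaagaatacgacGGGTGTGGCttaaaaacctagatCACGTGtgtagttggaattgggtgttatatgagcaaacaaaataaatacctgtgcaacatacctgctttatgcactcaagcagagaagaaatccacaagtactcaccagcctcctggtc
ADH5 promoter: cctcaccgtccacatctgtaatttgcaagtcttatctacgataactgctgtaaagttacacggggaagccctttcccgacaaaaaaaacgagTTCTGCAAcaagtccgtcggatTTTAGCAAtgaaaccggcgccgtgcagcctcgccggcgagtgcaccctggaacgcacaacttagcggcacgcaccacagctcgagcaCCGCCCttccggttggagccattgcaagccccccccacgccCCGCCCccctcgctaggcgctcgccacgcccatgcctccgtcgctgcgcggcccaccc

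The 3 class I promoters were near copies of each other, with 81.3% to 82.2% identical positions in pairwise global alignments, gaps counted as differences. Against the ADH5 promoter they had 39.4% (ADH1A), 42.4% (ADH1B) and 40.6% (ADH1C). Against the promoters of ADH4 and ADH6 they had 46.7% to 50.3%, and against 1 window of ADH7 46.6% to 48.3%. ADH4 and ADH6 had 48.8% with each other, and 43.5% and 45.2% with ADH5. The motif GGGTGTGGC, which was chosen from these sequences after they were read, began at position -96 of the ADH1A start and -92 of the ADH1B and ADH1C starts, and 0.954% of the 35116 promoters of the same length held it on either strand. It was not in the windows of ADH4 and ADH6, which fell too, nor in those of ADH5 and ADH7. The E-box CACGTG, the kind of site that USF and related factors bind, began at position -69 in ADH1B and ADH1C. It was held by 7.26% of promoters, and these letters were not in the ADH1A window. ADH5 had 29 CG dinucleotides in its window, against 1, 1 and 6 in ADH1A, ADH1B and ADH1C, 2 each in ADH4 and ADH6, 1 and 2 in the 2 windows of ADH7, which had 1 read, and a median of 14 over all promoters. The ADH5 window also held the GC box GGGCGG at 2 places (45% of promoters held it) and TTNNGCAA at 2 places (10.5%). TTNNGCAA also occurred in the windows of ADH4 and ADH7, but not in those of ADH1A, ADH1B, ADH1C or ADH6. GTTAAT, letters of the HNF1 site (6.88% of promoters) was present in the ADH4 window alone among the family. TATAAA (11.5%) was present in windows of ADH4 and ADH7, each time on the other strand. These matches lay at -238 and -207 in ADH4, and at -212 and -93 in 1 window of ADH7. All motif matches given here describe the letters only.

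Fatty acid loading lowered 5 of the 6 alcohol dehydrogenase genes that were expressed highly enough to be tested, each of them to between 0.263 and 0.550 of its control level. The falls were ordered ADH1C, ADH4, ADH1B, ADH1A and ADH6. ADH5 did not pass the test, and ADH7 was at the limit of detection. The share of all tested genes called lower was 4.68%, against 8.22% called higher, a direction that no member took. With a log2 fold change of -0.8 or below, 1.16% were called lower. This cut was not planned and lies just short of the smallest of the 5 falls (ADH6, -0.83), so that all 5 genes pass it is not a result. The same 5 genes were called lower when libraries were scaled to nuclear reads, which leaves out the differing mitochondrial share. In bulk RNA, fewer cells of a type and less RNA per cell cannot be told apart, so each level is that of the whole culture.

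**Figure D1:**
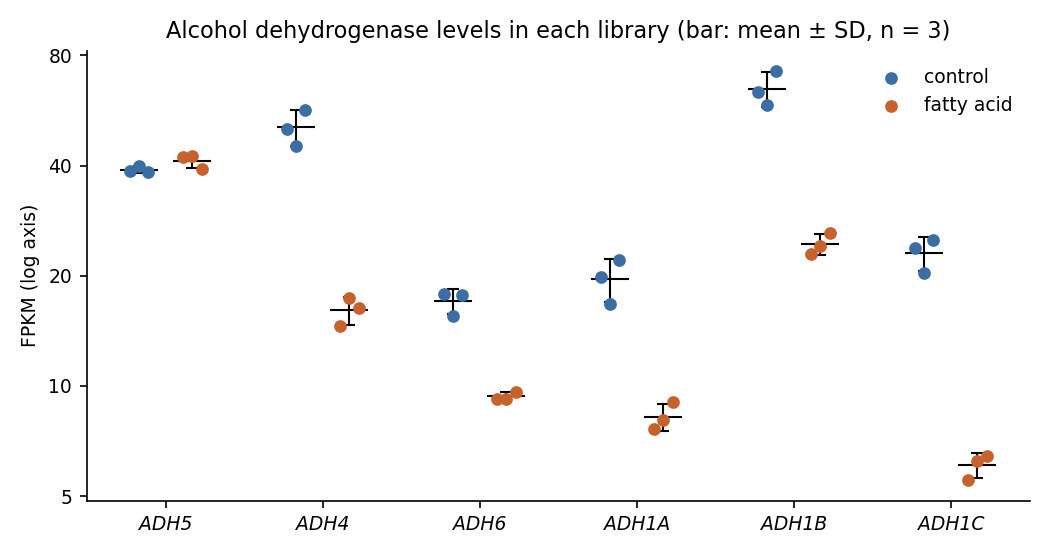
FPKM (log axis) of 6 alcohol dehydrogenase genes in each of 3 control (blue) and 3 fatty acid (orange) libraries, in the order of the genes along the chromosome, with the mean ± SD as black bars. The groups of ADH4, ADH6, ADH1A, ADH1B and ADH1C are apart, those of ADH5 overlap, and ADH7 is not drawn because 5 of its values are 0.

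Among the class I genes, ADH1B had the highest level. It stood at 63.4, 58.4 and 72.4 FPKM in control replicates 1, 2 and 3. With fatty acid it stood at 23.0, 24.0 and 26.2 FPKM in replicates 1, 2 and 3. The groups were well apart. ADH1B (ENSG00000196616.12, chromosome 4, 99304964 to 99321401, minus strand, GRCh38) fell 2.65-fold on the mean, with a log2 fold change of -1.39 ± 0.09 (limma adjusted p = 0.000176). This value rests on 19148 control reads and 10200 fatty acid reads.

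ADH1C fell furthest of the family. Its levels were 23.8, 20.3 and 25.1 FPKM in controls 1 to 3 and 5.53, 6.25 and 6.44 FPKM with fatty acid, in replicate order, so the groups were far apart. ADH1C (ENSG00000248144.5, 99336492 to 99353027) had a log2 fold change of -1.84 ± 0.09, a 3.80-fold lower mean (limma adjusted p = 8.74e-05), and 9 genes called lower in the whole table had a larger fall. ADH1A had 19.9, 16.8 and 22.1 FPKM in controls 1 to 3 and 7.62, 8.05 and 9.03 FPKM with fatty acid, in replicate order. Its groups did not overlap either, and ADH1A (ENSG00000187758.7, 99276367 to 99291028) changed by -1.20 ± 0.11 on the log2 scale, a 2.38-fold fall (limma adjusted p = 0.000785).

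ADH4, the class II gene, was second in level in controls. It had 50.4, 45.3 and 56.8 FPKM in controls 1 to 3 and 14.6, 17.4 and 16.3 FPKM with fatty acid, in replicate order. All fatty acid libraries were under every control library by a wide margin, and ADH4 (ENSG00000198099.8, 99123657 to 99157792) changed by -1.63 ± 0.10 on the log2 scale, a 3.16-fold fall (limma adjusted p = 0.000151). ADH6, the class V gene, fell least. It had 17.8, 15.5 and 17.8 FPKM in controls 1 to 3 and 9.24, 9.22 and 9.65 FPKM with fatty acid, in replicate order. The groups of ADH6 (ENSG00000172955.17, 99202638 to 99219537) did not overlap, and its log2 fold change was -0.83 ± 0.07, a 1.82-fold fall (limma adjusted p = 0.000601). Among all tested genes 13.3% had groups that did not overlap with fatty acid lower.

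ADH5, the class III gene made in nearly all tissues, did not pass the test. It had 38.6, 39.9 and 38.4 FPKM in controls 1 to 3 and 42.1, 42.4 and 39.0 FPKM with fatty acid, in replicate order. The groups overlapped, since fatty acid replicate 3 was below control replicate 2. ADH5 (ENSG00000197894.10, 99070978 to 99088801) had a log2 fold change of 0.08 ± 0.05 with a 95% interval of -0.05 to 0.20 (limma adjusted p = 0.355), and the median over all tested genes was 0.04. ADH7 (ENSG00000196344.11, 99412261 to 99435737), which is not a liver gene, had 1 read in control replicate 3 and 0 reads in the other 5 libraries. The floor of 3 reads over the fatty acid group corresponds to 0.0250 FPKM, so a lower ADH7 level was not detectable at this depth, and no test was made.

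**Figure D2:**
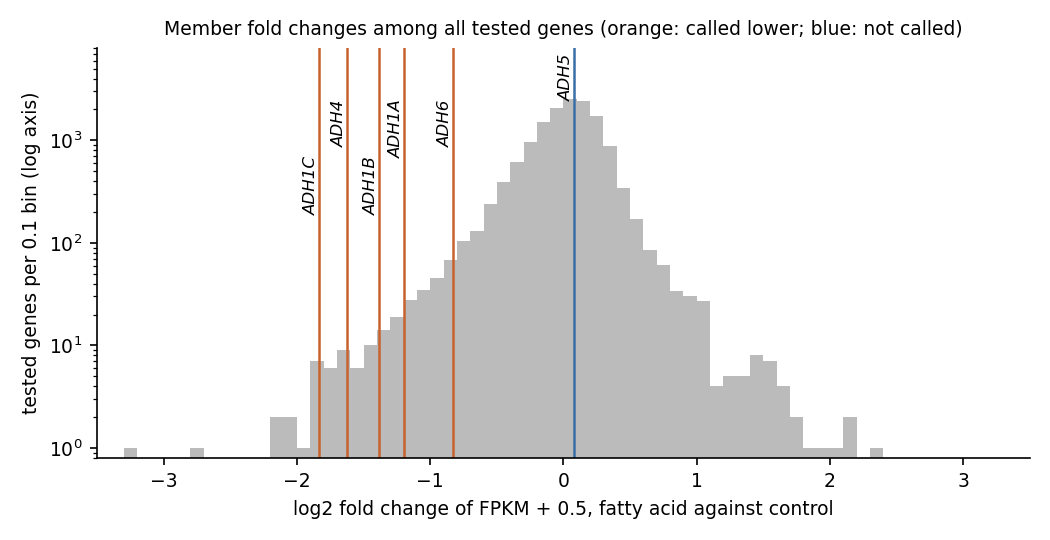
Histogram of the log2 fold change of the 14661 tested genes (0.1 per bin, counts on a log axis), with vertical lines for the 6 tested alcohol dehydrogenases. The lines of ADH1C, ADH4, ADH1B, ADH1A and ADH6, at -1.84 to -0.83, lie in the lower tail, and that of ADH5, at 0.08, lies in the bulk.

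The order of levels within the family differed between the groups. FPKM is per base of gene length, and the order of genes therefore depends on the length each gene is given. With the lengths of the deposited table, in controls the order was ADH1B (64.7 ± 7.07 FPKM), ADH4 (50.9 ± 5.76), ADH5 (39.0 ± 0.838), ADH1C (23.1 ± 2.47), ADH1A (19.6 ± 2.69) and ADH6 (17.05 ± 1.31). The ranges of ADH1C and ADH1A overlapped, as did those of ADH1A and ADH6, although in each of the 3 libraries the order of the pair was the same. With fatty acid ADH5 came first (41.2 ± 1.86 FPKM), followed by ADH1B (24.4 ± 1.67), ADH4 (16.1 ± 1.40), ADH6 (9.37 ± 0.243), ADH1A (8.23 ± 0.721) and ADH1C (6.07 ± 0.482), and no neighbours in that order overlapped. With these lengths ADH1C stood above ADH1A and ADH6 in controls and below both with fatty acid. With the length of each gene's longest protein-coding transcript (GENCODE release 29), a choice added after the data were seen, the control order was ADH1B, ADH5, ADH4, ADH1A, ADH1C and ADH6, so that ADH5 stood above ADH4 and ADH1A above ADH1C in controls already. In these controls the ranges of ADH1A and ADH1C overlapped, as did those of ADH1C and ADH6, although each library had the same order of the pair. With fatty acid ADH5 and ADH1B stayed first and second and ADH1C stayed last of these 6 genes under both lengths. ADH1A and ADH6 were nearly level with transcript lengths, at 12.40 ± 1.09 and 12.36 ± 0.320, and their ranges overlapped. The summed level of ADH1A, ADH1B, ADH1C, ADH4 and ADH6 was 175.3 ± 18.9 FPKM in controls and 64.2 ± 3.92 FPKM with fatty acid, a 2.73-fold fall with the table's lengths.

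The difference between the liver genes and ADH5 was tested within libraries. For each library the level of a gene was divided by that of ADH5. ADH1B stood at 1.64, 1.46 and 1.89 times ADH5 in controls 1 to 3 and at 0.545, 0.567 and 0.672 times ADH5 with fatty acid, so it went from above ADH5 to below it. With transcript lengths ADH1B was at 2.34 ± 0.298 and 0.838 ± 0.0954 times ADH5. ADH4 went from 1.31 ± 0.172 to 0.392 ± 0.0391 times ADH5 with the table's lengths, and from 0.801 ± 0.106 to 0.240 ± 0.0240 with transcript lengths, which put it below ADH5 in both groups. ADH1C went from 0.593 ± 0.0752 to 0.148 ± 0.0169, ADH1A from 0.504 ± 0.0786 to 0.201 ± 0.0268, and ADH6 from 0.438 ± 0.0424 to 0.228 ± 0.0166 times ADH5. The 2 groups of ratios did not overlap for any of the 5 genes, as was the case, with fatty acid lower, for 17.7% of all tested genes set against ADH5. The two-sided exact permutation test gave p = 0.1 for each of the 5 comparisons (also 0.1 after Benjamini-Hochberg adjustment), the smallest value that 3 against 3 samples allow. A fit added after the data were seen, limma over all genes with ADH5 subtracted, gave log2 differences from -0.91 ± 0.09 for ADH6 (adjusted p = 0.00203) to -1.92 ± 0.12 for ADH1C (adjusted p = 0.000334), with 4.26% of all genes called lower in it.

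The mixture within class I also differed between the groups. ADH1C made up 22.2%, 21.2% and 21.0% of the summed class I FPKM in controls 1 to 3 and 15.3%, 16.3% and 15.4% with fatty acid. Its share was lower in every fatty acid library than in any control library, by 5.80 percentage points on the mean. The share of ADH1A was 18.2 ± 0.553% in controls and 21.3 ± 0.351% with fatty acid, and that of ADH1B 60.3 ± 1.00% and 63.1 ± 0.459%. The 3 shares sum to 100% in a library and so are not independent, and each had an exact permutation p of 0.1 (two-sided, 0.1 after Benjamini-Hochberg adjustment over the 3), the smallest possible. In terms of ratios, ADH1C was at 1.35 ± 0.0543 times ADH6 in controls and 0.648 ± 0.0431 times with fatty acid, and ADH1A was at 0.848 ± 0.0307 times ADH1C in controls and 1.36 ± 0.0605 times with fatty acid. With transcript lengths ADH1A was above ADH1C in both groups, at 1.195 ± 0.0433 and 1.91 ± 0.0852 times it. The length given to a gene sets the size of such a ratio, and cancels in the fold difference of the ratio between the groups.

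**Figure D3:**
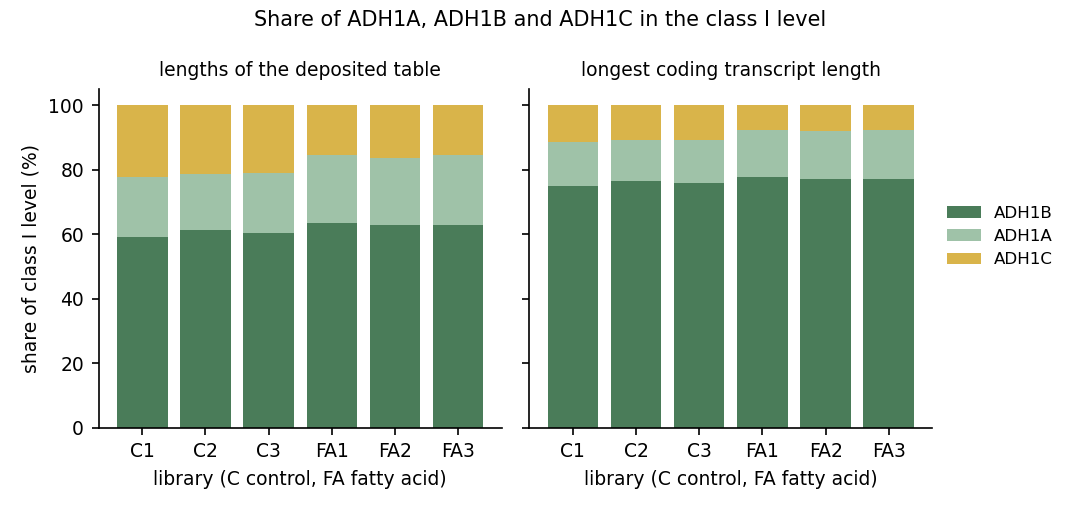
Share (%) of ADH1B, ADH1A and ADH1C in the summed class I level of each library (C control, FA fatty acid), with the gene lengths of the deposited table (left) and the length of each gene's longest protein-coding transcript (right). The ADH1C share is smaller in the 3 fatty acid libraries under both lengths, 15.7% against 21.5% on the left and 7.83% against 11.02% on the right.

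The size of these shares depended on gene length. The deposited table gives ADH1B a length of 10674 bases, whereas its longest protein-coding transcript has 4072 bases in GENCODE release 29, against 2258 and 1499 for ADH1A and 1860 and 1740 for ADH1C. With transcript lengths, a choice added after the data were seen, ADH1B made up 75.8 ± 0.767% of the class I level in controls and 77.2 ± 0.316% with fatty acid, and ADH1C 11.02 ± 0.414% and 7.83 ± 0.293%. The class I genes are also alike in sequence. Of the distinct 50-base windows in their annotated transcripts, 13.7% of those of ADH1C, 10.7% of those of ADH1A and 3.72% of those of ADH1B also occurred in another class I gene, and none of those of ADH4, ADH5, ADH6 or ADH7 occurred in another member. Reads from shared windows may be dropped or divided between the genes, so the class I values are uncertain to that extent.

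Among libraries of the same group, control replicate 2 was the lowest for all 5 genes that fell, and control replicate 3 the highest for ADH1A, ADH1B, ADH1C and ADH4. Fatty acid replicate 1 was the lowest fatty acid library for the same 4 genes. Control replicate 2 and fatty acid replicate 1 were also the shallowest libraries of their groups, and control replicate 3 was the deepest control library. The part of depth in this order was not tested. Of all 6 libraries, fatty acid replicates 2 and 3 were the deepest, and fatty acid replicate 1 was shallower than control replicates 1 and 3. The part of depth in the difference between the groups was not tested either. The mean log2 level of the 5 genes was 4.96, 4.78 and 5.08 in controls 1 to 3 and 3.47, 3.58 and 3.64 with fatty acid.

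The genes whose profile over the 6 libraries was most like the mean profile of the 5 fallen genes were liver enzyme genes. Likeness was the root mean square difference of centred log2 values over 6 libraries, with a minimum level of 1 FPKM. CYP2C8, a drug-metabolizing cytochrome P450, was closest at 0.037, followed by CYP4F2, a fatty acid omega-hydroxylase, at 0.097, ARG1, the arginase of the urea cycle, at 0.10, HAO2, a peroxisomal hydroxyacid oxidase, at 0.11, and ACSM2A, a medium-chain acyl-CoA synthetase, at 0.11. ADH1B was at 0.031 from that mean and ADH6 at 0.28, but both are part of the mean, so these distances are not on equal terms with the others. CYP2C8 went from 35.2 ± 3.67 to 13.0 ± 0.801 FPKM, with control replicate 2 the lowest control library and fatty acid replicate 1 the lowest fatty acid library. As CYP2C8 was picked by its likeness over these libraries, the shared order is not a separate result. The likeness is a description of 2 groups of 3 libraries that share their depth.

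The 7 genes occupy 364.8 kb of chromosome 4 (99070978 to 99435737), all on the minus strand, in the order ADH5, ADH4, ADH6, ADH1A, ADH1B, ADH1C and ADH7. The largest and the smallest fall therefore belonged to genes of the same row, and ADH5, at its end, lay 34855 bases from ADH4, which fell 3.16-fold. Within 500 kb on either side, 24 other annotated genes lay wholly inside the window and 5 were expressed highly enough to be tested. MTTP, which encodes the microsomal triglyceride transfer protein of lipoprotein assembly, was the 1 gene of these that was called, lower, from 14.2 ± 0.754 to 10.2 ± 0.196 FPKM (log2 fold change -0.45 ± 0.06, limma adjusted p = 0.00511). MTTP was at 0.02 on the log2 scale when libraries were scaled to the mean of hepatocyte markers (adjusted p = 0.757). That scaling put the median of all tested genes at 0.52.

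The other 4 tested neighbours had positive log2 fold changes and did not pass. METAP1, a methionine aminopeptidase gene and the nearest tested gene beyond ADH5, had 0.19 ± 0.10 (limma adjusted p = 0.247) and EIF4E, the cap-binding translation factor, 0.19 ± 0.09 (0.183). In both, all fatty acid libraries were above all controls, as for 23.7% of all tested genes. TRMT10A, a tRNA methyltransferase gene, had 0.17 ± 0.15 (0.480) and LAMTOR3, a subunit of the lysosomal Ragulator complex, 0.09 ± 0.08 (0.477). Of the 24 other genes, 2 lie inside the cluster. The pseudogene PCNAP1 had 0 reads in all 6 libraries. RP11-696N14.1, an antisense gene on the plus strand (99088857 to 99301356), spans ADH4, ADH6 and ADH1A and had 0.514 ± 0.0561 FPKM in controls and 0.340 ± 0.115 FPKM with fatty acid, below the minimum for testing. It had 100 control reads and 98 fatty acid reads, against 3461 and 1552 for ADH4. No source used here gives the strand setting of the counting, and without strand the reads of ADH4, ADH6 or ADH1A and of this gene cannot be told apart.

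**Figure D4:**
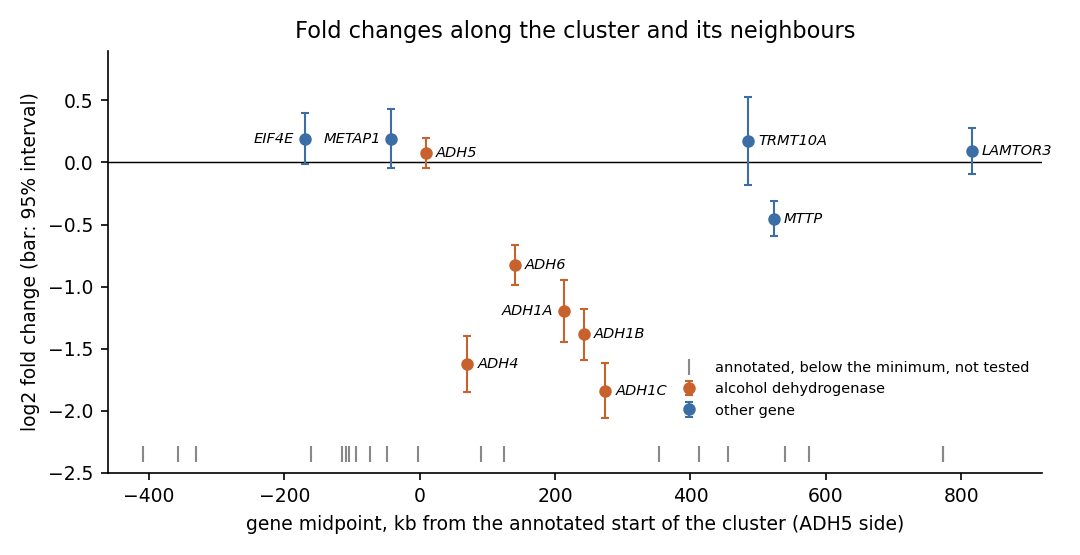
Log2 fold change with its 95% interval for the tested genes of the cluster (orange) and within 500 kb of it (blue), against the position of the gene's midpoint in kb from the start of the cluster on the ADH5 side. Grey ticks are annotated genes below the minimum. The 5 genes from ADH4 to ADH1C lie at -0.83 to -1.84, while ADH5 and 4 of the 5 other genes lie above 0.

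Other enzymes of ethanol oxidation, and those that act on its products, were examined next. Over all tested genes 12.9% were called in either direction, and the counts in the lists below stand beside that share. Of 8 genes listed for the handling of ethanol and acetate, 7 were tested, 4 (57.1%) were called lower, none higher, and their median log2 fold change was -0.26. ALDH1A1, a cytosolic aldehyde and retinal dehydrogenase, fell from 422.5 ± 24.1 to 305.4 ± 7.45 FPKM (limma adjusted p = 0.00336). ALDH2, the mitochondrial enzyme that oxidizes acetaldehyde, fell from 19.6 ± 0.974 to 16.2 ± 0.0132 FPKM (0.0254), CYP2E1, the ethanol-oxidizing cytochrome P450, from 17.2 ± 0.805 to 13.5 ± 0.141 FPKM (0.0114), and ACSS2, the cytosolic acetyl-CoA synthetase, from 27.1 ± 1.15 to 21.9 ± 1.21 FPKM (0.0226). Catalase (CAT), ALDH1B1 and ACSS3 did not pass, at -0.02, 0.01 and 0.13 on the log2 scale (0.858, 0.919 and 0.229). In place of 4, the list had 1 gene called lower when fatty acid replicate 1 or 2 was left out, 1 when values were rescaled to TPM and 2 when the fit had no intensity trend. It had 3 when control replicate 3 or fatty acid replicate 3 was left out. ALDH2 lost its call in each of these cases (0.0615 to 0.248). Over all tested genes, those called lower went from 686 to 233 and 245 without fatty acid replicates 1 and 2. They numbered 407 without control replicate 3, 395 without fatty acid replicate 3, 408 rescaled to TPM and 459 without the trend. The leave-out counts of the later lists stand beside totals of 463 to 1629 genes called, against 1891 with all libraries. Scaled to the mean of hepatocyte markers, the same 4 genes had positive log2 values, 0.01 for ALDH1A1, 0.21 for ALDH2, 0.13 for CYP2E1 and 0.17 for ACSS2. ALDH2 (0.00754), ACSS2 (0.0368) and CYP2E1 (0.0477) were called higher there and ALDH1A1 was not called (0.934). The list had 6 genes called higher and 0 lower, where 75% of all tested genes were called higher. This scaling put the median of all tested genes at 0.52, so all 4 values were below that of most genes. Of the other 16 aldehyde dehydrogenases listed, 12 were tested, 5 called lower and 2 higher (58.3% in all). ALDH6A1, of valine breakdown, fell from 35.4 ± 0.365 to 24.1 ± 0.0410 FPKM (0.000546), ALDH1L1, a folate enzyme, from 10.2 ± 0.905 to 6.67 ± 0.142 FPKM (0.00468), and ALDH3A1 from 50.2 ± 6.71 to 35.0 ± 0.357 FPKM (0.0140), whereas ALDH9A1 rose from 30.6 ± 0.859 to 37.5 ± 0.208 FPKM (0.0103). With fatty acid replicate 1, 2 or 3 left out, ALDH3A1 lost its call (0.0668, 0.0612 and 0.0501), and with replicate 1 or 2 of that group left out ALDH9A1 lost it too (0.0647 and 0.0588). The list then had 2 genes called lower in each of the 3 cases, with none higher in the cases of replicates 1 and 2 and 1 higher in that of replicate 3. It had 3 lower when control replicate 1 or control replicate 3 was left out. Scaled to hepatocyte markers, ALDH6A1, ALDH1L1 and ALDH3A1 were not called, at -0.08, -0.11 and -0.04 on the log2 scale (0.189, 0.193 and 0.693).

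Around ADH5, in the formaldehyde and glutathione route, 11 genes were tested. Of these 2 were called lower and 1 higher (27.3% in all), with a median log2 fold change of 0.02. ESD, the S-formylglutathione hydrolase that takes the product of ADH5, was at 20.6 ± 1.40 and 23.2 ± 0.794 FPKM (limma adjusted p = 0.123). GCLM, a subunit of the first enzyme of glutathione synthesis, rose from 18.1 ± 0.529 to 24.4 ± 1.52 FPKM (0.00787). CBR1, a carbonyl reductase, fell from 41.1 ± 3.75 to 30.2 ± 0.934 FPKM (0.0108), and SHMT1, of folate metabolism, from 14.3 ± 0.349 to 12.2 ± 0.443 FPKM (0.0480). SHMT1 lost its call whichever library was left out (0.0627 to 0.178). Leaving out fatty acid replicate 1 also ended the calls of GCLM (0.0509) and CBR1 (0.0615), and leaving out any other library gave 1 gene lower and 1 higher. Rescaled to TPM, 3 genes of the list were called higher and none lower. Scaled to hepatocyte markers, CBR1 and SHMT1 stood at 0.04 and 0.26 on the log2 scale, below the median of all tested genes, 0.52. CBR1 was not called there (0.613) and SHMT1 was called higher (0.0043), as were 75% of all tested genes.

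Retinoid genes, listed because several alcohol dehydrogenases oxidize retinol, went both ways. Of 19 tested, 6 were called lower and 4 higher (52.6% in all), with a median of -0.01. RDH16, a microsomal retinol dehydrogenase of liver, fell from 17.5 ± 2.31 to 5.41 ± 0.348 FPKM, a log2 fold change of -1.60 ± 0.10 (limma adjusted p = 0.000187), which lay between those of ADH4 and ADH1B. TTR and RBP4, the plasma carriers of retinol, fell from 279.5 ± 17.5 to 115.7 ± 5.48 FPKM (8.74e-05) and from 2002 ± 176 to 1096 ± 46.6 FPKM (0.000760). Both are also among the hepatocyte markers below, so they count in both lists and in the marker scaling. RDH5 fell from 4.26 ± 0.443 to 2.59 ± 0.331 FPKM (0.0150). RDH5 lost its call when control replicate 3 (0.0512), fatty acid replicate 1 (0.0570) or fatty acid replicate 2 (0.0576) was left out, and when libraries were scaled to hepatocyte markers (-0.15, 0.241). The number called higher was 2 when control replicate 1 or 2 was left out and 0 when any other library was. The number called lower was 3 when control replicate 3 or fatty acid replicate 2 was left out, 5 for control replicate 2 and 4 for the others. Of 11 other genes tested, 10 of them relatives in the medium-chain dehydrogenase superfamily, 1 was called, ADHFE1, an unrelated iron-dependent alcohol dehydrogenase of mitochondria. ADHFE1 fell from 12.8 ± 0.456 to 7.63 ± 1.22 FPKM (0.00683), a call lost under hepatocyte marker scaling (-0.25 on the log2 scale, 0.0747). The 1 call is 9.09% of the list.

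Among regulators known to act on liver gene promoters, including those of alcohol dehydrogenases, the share called was near that of all genes. Of 25 tested, 3 were called lower and none higher (12%, against 12.9%), with a median of -0.10. NR1I2, the gene of the xenobiotic receptor PXR, had 4.44 ± 0.259 FPKM in controls and fell to 2.10 ± 0.303 FPKM (limma adjusted p = 0.00220). HNF4A, a central hepatocyte transcription factor, fell from 16.7 ± 1.36 to 11.7 ± 0.715 FPKM (0.00923), and HLF, a PAR-domain transcription factor of the liver, from 3.22 ± 0.175 to 1.95 ± 0.280 FPKM (0.0146). HNF4A lost its call when fatty acid replicate 1 (0.0552) or 2 (0.0520) was left out. HLF lost its call in the same cases (0.0602 and 0.0531) and when control replicate 3 was left out (0.0501). Under hepatocyte marker scaling both calls ended, at -0.02 (0.833) for HNF4A and -0.13 (0.294) for HLF. With fatty acid replicate 1 or 2 left out the list had 1 gene called lower, and with control replicate 2 left out it had 5 lower and 1 higher. Rescaled to TPM it had 5 genes called higher beside the 3 lower. When libraries were scaled to the mean of hepatocyte markers, the medians of these lists were all above 0, at 0.21 for ethanol and acetate, 0.25 for the other aldehyde dehydrogenases, 0.49 for the formaldehyde route, 0.46 for retinoids, 0.43 for the dehydrogenase relatives and 0.38 for the regulators. All of them were below the median of all tested genes in that scaling, 0.52.

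Hepatocyte markers as a group were also lower. Of 24 listed, 23 were tested, 14 were called lower and 4 higher (78.3% in all), with a median of -0.57. CPS1, of the urea cycle, fell from 40.1 ± 0.428 to 13.3 ± 0.280 FPKM (limma adjusted p = 3.06e-05), TF, transferrin, from 184.7 ± 6.24 to 89.1 ± 3.39 FPKM (8.74e-05) and AHSG, fetuin-A, from 24.6 ± 1.33 to 9.98 ± 0.680 FPKM (0.000135). The 4 that rose were the acute-phase genes FGB, FGG, HP and SERPINA1, chosen for mention after their values were seen. With fatty acid replicate 1 or 2 left out, 11 were called lower and 2 higher. The summed marker level was 22032 to 22501 FPKM in the control libraries and 17500 to 18012 FPKM in the fatty acid libraries. ALB is the largest part of this sum, at 12025 ± 318 and 7127 ± 306 FPKM, and the 4 acute-phase genes in it rose. The lower sum therefore reflects mainly ALB and does not speak for the other markers. Against these markers, the mean log2 level of the 5 fallen alcohol dehydrogenases was -2.19 ± 0.134 in controls and -3.09 ± 0.0988 with fatty acid, a further difference of -0.90 (two-sided exact permutation p = 0.1, the smallest possible). The size of this difference depends on the markers listed, since their mean includes the 4 acute-phase genes that rose. Some single markers fell as far as members did, such as CPS1 at -1.56 and TAT at -1.46 on the log2 scale. In a fit added after the data were seen, with each library scaled to the mean of the markers, all 5 were still called lower, from -0.36 ± 0.07 for ADH6 and -0.72 ± 0.11 for ADH1A to -0.91 ± 0.09 for ADH1B, -1.15 ± 0.09 for ADH4 and -1.37 ± 0.09 for ADH1C. This scaling moved the median of all genes to 0.52, with 1.11% of genes called lower and 75% higher, ADH5 among the latter at 0.55 ± 0.05 (limma adjusted p = 0.000107).

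Of the 18 tested markers of other cell types 3 were called, 16.7% against 12.9% of all genes. Of 15 biliary markers 7 were tested and 1, the surface protein gene CD24, was called lower, from 82.9 ± 2.52 to 64.5 ± 1.45 FPKM (limma adjusted p = 0.00474). The call was lost after rescaling to TPM (0.0513). Under hepatocyte marker scaling CD24 was not called, at 0.11 on the log2 scale, where the median of all tested genes was 0.52. The summed biliary level ran from 487.3 to 565.0 FPKM in controls and from 475.5 to 491.7 FPKM with fatty acid, and 3 of the 15 were under 0.1 FPKM throughout. Of 12 mesenchymal markers 9 were tested and 1, LUM, lumican, was called higher, from 44.3 ± 3.89 to 60.7 ± 1.88 FPKM (0.00846), a call lost when fatty acid replicate 1 was left out (0.0537). Their sum ran from 103.0 to 112.5 FPKM in controls and from 119.8 to 127.8 FPKM with fatty acid. Of 13 immune and endothelial markers 2 were tested, and KDR fell from 40.7 ± 3.48 to 25.6 ± 0.972 FPKM (0.00195; -0.18 on the log2 scale and 0.0647 under hepatocyte marker scaling), while 8 of the 13 were under 0.1 FPKM throughout. Their sum, 49.9 to 54.6 FPKM in controls and 38.4 to 40.5 FPKM with fatty acid, is largely KDR and CD14. Whether these markers stand for separate cell populations in this 1 cell line was not tested, nor was any part of such cells in the levels of the alcohol dehydrogenases.

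**Figure D5:**
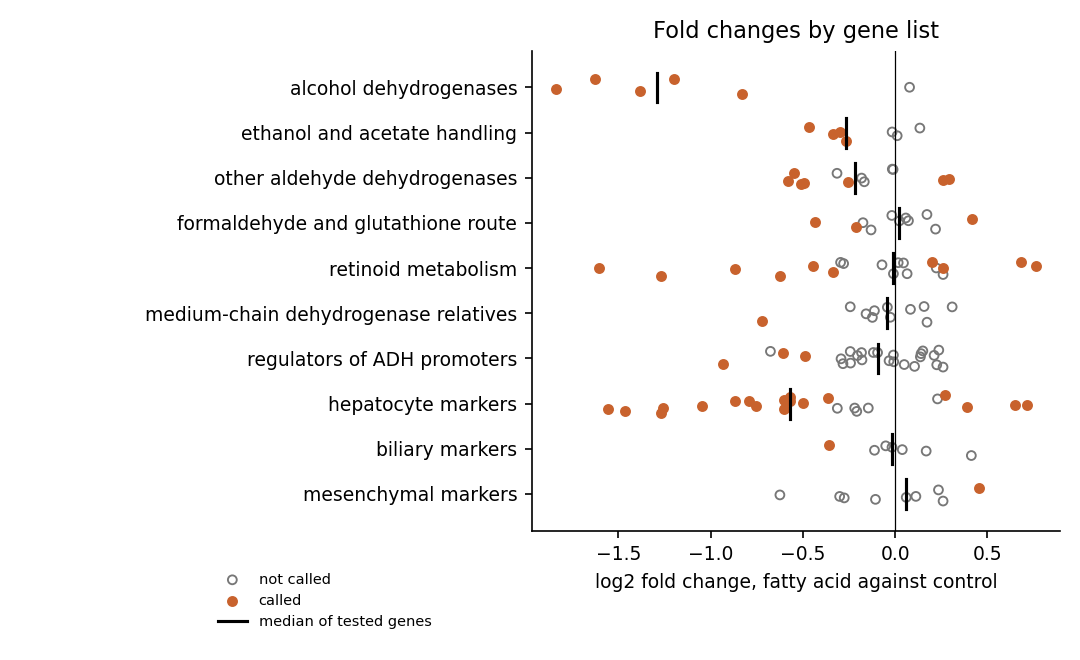
Log2 fold changes of the tested genes of each list (points, orange where called by limma at an adjusted p under 0.05, open grey where not) and their median (black bar). The alcohol dehydrogenases, with a median of -1.29 over the 6 tested genes, lie below the medians of the other 9 lists drawn, of which the hepatocyte markers have the lowest, at -0.57.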

How the data were processed

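FPKM is the unit of the 1 table that the authors deposited, which also lists identifier, position and length of each gene, per the file headers. Libraries were made with a stranded mRNA kit from 100 ng of RNA, per the labels' protocols. Per the submitters' processing notes the tools were STAR 2.5.2, Subread 1.5.1 and featureCounts, and the build was GRCh38. The strand setting and the handling of reads that fit several genes are not given in the sources used here.

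In each library FPKM times length came in whole multiples of 1 step (100% of values that could be checked, tolerance 0.02 reads beyond rounding), which gives reads and depth. Groups came from the sample titles. All genes whose mean reached 0.5 FPKM entered 1 limma fit with an intensity trend (limma 3.58.1, R 4.3.3), made on log2(FPKM + 0.5). Its p-values were Benjamini-Hochberg adjusted over all genes tested and called under 0.05. A p in parentheses after a named gene is the limma adjusted p. Ratios and shares were compared with two-sided exact permutation tests.

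Named genes were the 7 members, genes inside the cluster, called neighbours within 500 kb (the uncalled tested ones were added), in each list up to 4 called genes of smallest adjusted p or all called regulators, and the 5 most alike profiles. ALB, CAT, ALDH1B1, ACSS3, ESD, CD14, KRT19, DCN, ACTA2 and the markers at 0 were added after their values were seen. The members and lists were chosen with earlier results of these data known. Shared windows and lengths came from GENCODE release 29, promoters from RefSeq (GRCh38.p14), both GRCh38. Same-numbered replicates did not deviate together (r = 0.01, 0.08 and 0.02), so the numbers were not taken as pairs. Alternatives were pseudocounts, filters, scalings, no trend, voom on recovered reads, a replicate block and leaving out each library. Figures were drawn with matplotlib 3.10.9.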

Additional observations from a re-analysis of the deposited data

How the results depend on the processing

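The count of 5 alcohol dehydrogenases called lower was the same under all 18 alternatives to the limma fit, each library left out in turn included, and none of the 5 changed sign. Over these alternatives the log2 fold change of ADH1C ran from -1.93 to -1.37, of ADH4 from -1.70 to -1.15, of ADH1B from -1.46 to -0.91, of ADH1A from -1.30 to -0.72 and of ADH6 from -0.89 to -0.36, the values nearest 0 being those scaled to the mean of hepatocyte markers, and the highest adjusted p of any of them was 0.00784. ADH5 ran from 0.01 to 0.55. It was called in the scaling to hepatocyte markers alone, where the count of members called higher was 1 in place of 0. With the replicate block (the number as a factor, though the numbers share no more than a number) 5 members and 1474 genes were called, and without it 5 and 1891. The largest correlation of a control library with a fatty acid library of its own number was 0.08, and not every library correlated best with its own number.

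The number of all genes called was 1891, and 977 with no filter, 3023 rescaled to TPM, 1101 without the intensity trend, 2999 with limma voom on recovered reads, 11166 scaled to hepatocyte markers, and 463 to 1629 with 1 library left out. It was 1041 when control replicate 3 was left out, and 463, 484 and 913 for replicates 1, 2 and 3 of the fatty acid group. The cause was not tested. Subtracting ADH5 in the limma fit took the differences from ADH5 past the threshold that the exact test cannot reach, at -1.27 for ADH1A, -1.46 for ADH1B, -1.92 for ADH1C, -1.70 for ADH4 and -0.91 for ADH6. The share of ADH1C was lower with fatty acid under every alternative run for it. It fell by 1.63 percentage points in recovered reads, and it fell by 3.18 percentage points with transcript lengths. Depth limits ADH7, with 1 read in all 6 libraries. With transcript lengths the log2 ratio of ADH4 to ADH5 in controls turned from 0.39 to -0.32 and that of ADH1A to ADH1C from -0.24 to 0.26.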
